A study of Homo sapiens with 4 samples.

Results

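Sorting nexins (SNX genes) and the vacuolar protein sorting genes (VPS genes) encode much of the machinery that decides where a protein goes after it has entered an endosome. The set described here holds every gene whose only symbol in the array's annotation is SNX or VPS followed by a number, with one of the letters A to D allowed at the end of a VPS name. That rule found 63 of 19775 genes with a single symbol, 30 of them SNX and 33 VPS, covered by 162 probe sets. Each gene was read by its brightest probe set over all arrays, and SNX2 by all of its probe sets. The rule goes by name, so it also takes in VPS72, which works on chromatin and not in endosomes.

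The cells were Z138, an established human line derived from mantle cell lymphoma. This cancer of B cells commonly expresses the transcription factor SOX11. All samples carried a stably integrated lentiviral short hairpin RNA. There were 2 arrays of cells with hairpins against SOX11 (constructs shSOX11.1 and shSOX11.3) and 2 arrays of cells with scrambled hairpins (shControl.1 and shControl.2). The design text calls the transduced lines clones, each array stood for 1 construct, and the labels do not name separate cultures. No construct had more than 1 array, so the p-values below measure the spread among these 4 samples. In that spread, differences between hairpins, between lines and of technique cannot be told apart. Cells without any hairpin were not analysed here.

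As background, sorting nexins share a PX domain that binds phosphoinositide lipids of the endosome. Those of the SNX-BAR class also carry a BAR domain that bends the membrane into tubules. Retromer, built from VPS26, VPS29 and VPS35, acts beside SNX1 or SNX2 paired with SNX5 or SNX6 to return receptors to the trans-Golgi network or the cell surface. HOPS and CORVET tether late and early endosomes before fusion, GARP and EARP receive vesicles at the Golgi and at recycling endosomes, and the ESCRT complexes sort ubiquitinated receptors into the vesicles of multivesicular bodies. In B cells, endosomes take up the B-cell receptor with its antigen and load MHC class II.

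Expression was read on Affymetrix U133 Plus 2.0 arrays as MAS5 signal, a linear intensity in arbitrary units for each probe set. A gene was tested where its signal exceeded 24.8, the median over the whole table, on at least 2 arrays, which left 60 of the 63 genes. After trimming, mean signal came to 150 for every array. Scaling may have set that match, so it does not show that the arrays were alike. Median signals were 24.3 and 23.9 on the shSOX11 arrays and 25.7 and 25.3 on the shControl arrays. Above the threshold lay 49.5% and 49.1% of probe sets on the shSOX11 arrays and 50.9% and 50.5% on the shControl arrays. Both measures were lower on the shSOX11 arrays without overlap. SOX11, the targeted gene, read 335 and 339 on the shSOX11 arrays and 797 and 787 on the shControl arrays (limma log2 change -1.23, SE 0.15, adjusted p = 0.132). Its other probe sets stood at 45.4% and 36.0% of control. Lower signal in bulk RNA does not tell fewer cells of a kind apart from less RNA per cell. For beta-actin, probe sets near each end of the transcript gave a 3′ to 5′ ratio, a measure of RNA length and labelling, of 7.29 and 5.31 on the shSOX11 arrays and 11.6 on each shControl array. Among B-cell markers, 4 of the 5 read here were above the signal threshold of 24.8 on all arrays, and CD22 was above it on 3. Their summed signals were 8321 and 9758 on the shSOX11 arrays and 11439 and 10844 on the shControl arrays. Summed signals of 6 T and NK cell markers were 229 and 247 on the shSOX11 arrays and 264 and 289 on the shControl arrays, with CD8A under the threshold throughout. Those of 6 myeloid markers were 126 and 115 on the shSOX11 arrays and 92.2 and 83.1 on the shControl arrays, with CD14 and LYZ under the threshold throughout. The actin ratio and these sums moved with the groups, and their part in the results below was not tested. Most of the T and NK cell sum was CD3G, whose groups overlapped (129 and 203 on the shSOX11 arrays, 160 and 207 on the shControl arrays). Of the myeloid markers, CSF3R (30.6 and 30.3 on the shSOX11 arrays, 8.51 and 7.67 on the shControl arrays) was higher without overlap. So was CSF1R (25.7 and 28.9 on the shSOX11 arrays, 15.1 and 8.98 on the shControl arrays). Both were dim, with shControl signals under the threshold. CD14 and LYZ were lower, and the groups of ITGAM and MPO overlapped. The same end-to-end ratio for GAPDH also overlapped, at 1.01 and 1.03 on the shSOX11 arrays and 0.978 and 1.06 on the shControl arrays.

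No SNX or VPS gene passed limma's adjusted threshold of 0.05, and neither did any of the 11906 genes tested, of which 1003 lay under an unadjusted 0.05. SNX2 was the SNX or VPS gene furthest to the higher side by p, 1.81-fold higher on the shSOX11 arrays, and SNX22 was furthest to the lower side, 1.93-fold lower. These were the members for which each shSOX11 array lay 1.5-fold or more from each shControl array on 1 side, 2 of the 60 tested (3.33%, against 2.65% of all genes). SNX2 was the 1 higher and SNX22 the 1 lower, where 0.748% of all genes were higher and 1.90% lower. By the same rule 0 members were 2-fold apart, a count given without the share of all genes. Under an unadjusted p of 0.05 lay 8 members (13.3%, against 8.42% of all genes), 6 higher (SNX2, VPS45, VPS8, SNX14, SNX6 and SNX17) and 2 lower (SNX22 and VPS37B). Of all genes 3.42% were higher and 5.01% lower by that rule. The count rests on the arrays and on the variance model. It rose and fell with the array left out, as did the share of all genes. In limma without the intensity trend it was 4. The share of all genes in that fit is not given here, so the fall is not read as a result about the members. Without 1 array the 1.5-fold rule spans only 2 pairs and is easier to meet, so its counts cannot be set beside those over 4 pairs.

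**Figure D1:**
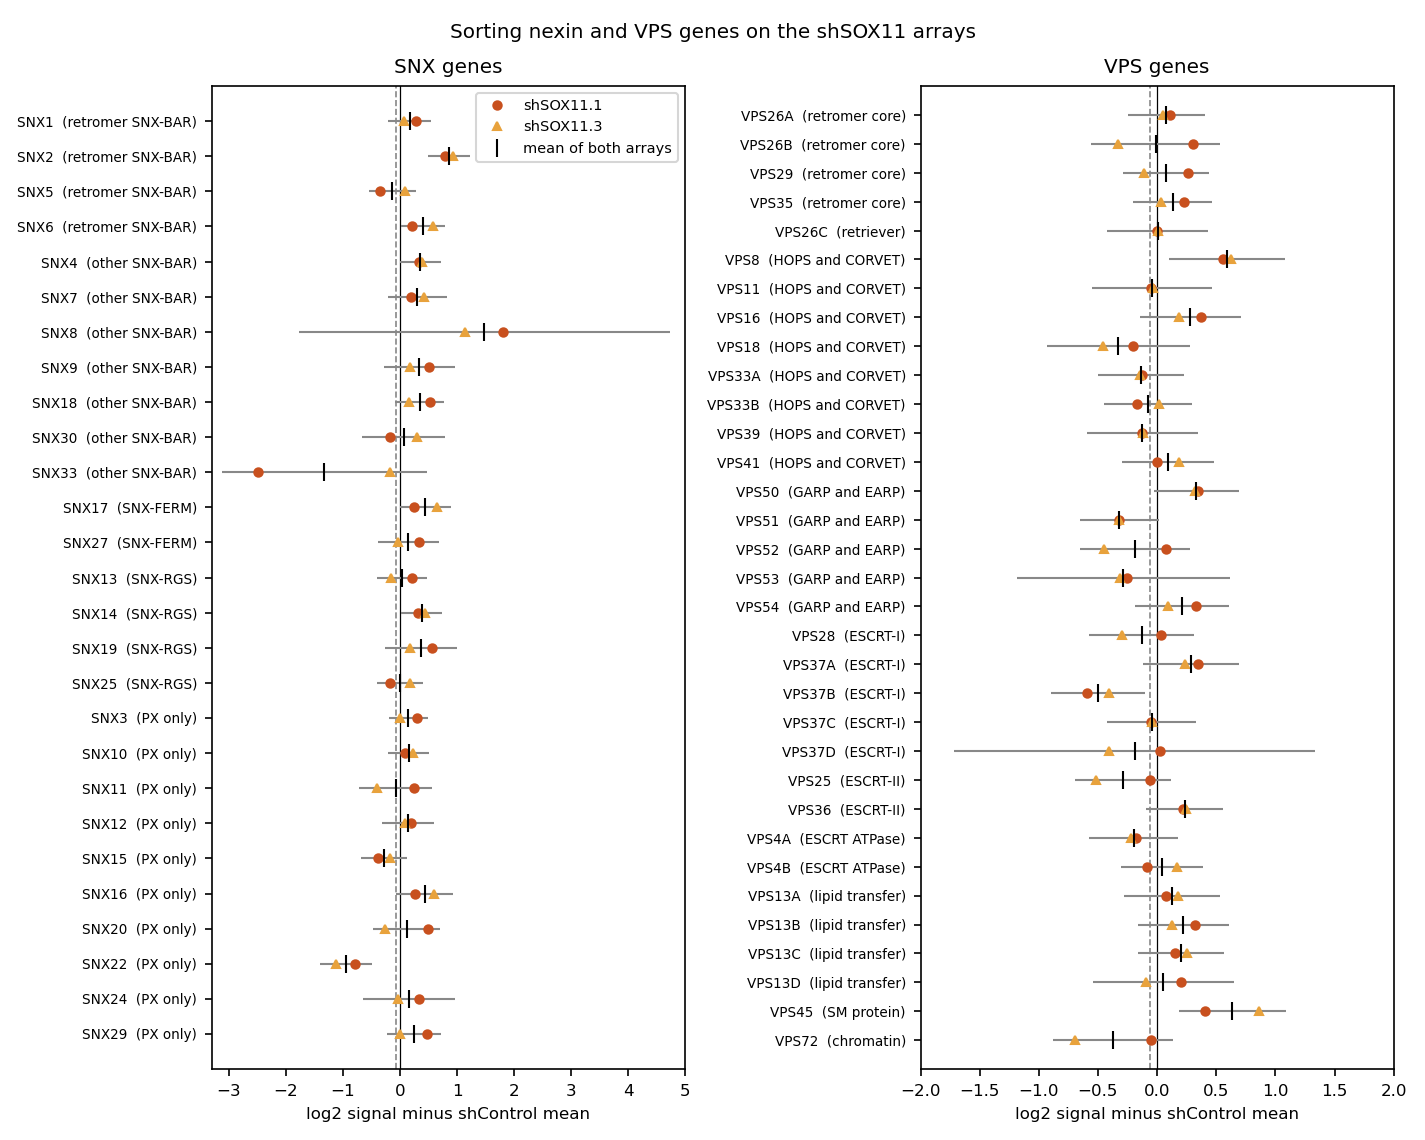
Log2 signal on each shSOX11 array minus the mean of the shControl arrays for the 27 SNX genes (left) and 33 VPS genes (right) tested, with their role group in brackets. Black ticks are the mean of both arrays, grey bars the 95% interval of limma, and the dashed line the median of all genes (-0.06). The horizontal scales of the panels differ. The 8 genes under an unadjusted p of 0.05 have intervals clear of 0, with SNX2 at 0.86 and SNX22 at -0.95 the furthest from it, while SNX8 and SNX33, which lie near the signal threshold, have the widest intervals.

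SNX2 is a BAR-domain sorting nexin that pairs with SNX5 or SNX6 and can stand in for SNX1. At its brightest probe set, 202113_s_at, the signal was 605 in shSOX11.1 cells and 669 in shSOX11.3 cells, against 371 in shControl.1 cells and 332 in shControl.2 cells. The groups did not overlap, and the lowest shSOX11 value lay 1.5-fold or more above the highest shControl value. Log2 means were 9.31 ± 0.10 on the shSOX11 arrays and 8.46 ± 0.11 on the shControl arrays (SD, n = 2 each), a limma log2 change of 0.86 (SE 0.16, 95% interval 0.49 to 1.23, adjusted p = 0.309). SNX2 stood at rank 24 of all genes by p. It was already known from earlier results of these arrays, so its p describes the gene and does not test a forecast.

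The other SNX2 probe sets did not show a difference of that size. Probe set 202114_at read 270 and 316 on the shSOX11 arrays against 329 and 207 on the shControl arrays. Here the groups overlapped, because shControl.1 was the highest of all, and the log2 change was 0.16 (SE 0.25, 95% interval -0.40 to 0.72). Probe set 232049_at lay under the signal threshold on every array, at 13.5 and 9.04 on the shSOX11 arrays and 13.0 and 17.7 on the shControl arrays. The mean over the kept probe sets of SNX2 put its log2 change at 0.51 (limma adjusted p = 0.559). With genes read by such means 0 members were 1.5-fold apart on all pairs, a count given without the share of all genes.

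SNX22, a sorting nexin with a PX domain and no BAR domain, went the other way at its brightest probe set. Signals at 230509_at were 151 and 119 on the shSOX11 arrays and 274 and 244 on the shControl arrays. The groups did not overlap, and log2 means were 7.07 ± 0.24 on the shSOX11 arrays and 8.01 ± 0.12 on the shControl arrays (SD, n = 2 each). The log2 change was -0.95 (SE 0.20, 95% interval -1.41 to -0.48, limma adjusted p = 0.341). Its further probe sets disagreed with each other. At 1569481_s_at the signal was 44.7 and 26.4 on the shSOX11 arrays and 39.1 and 78.5 on the shControl arrays, which overlap. At 235460_at it was 37.7 and 26.4 on the shSOX11 arrays and under the threshold on both shControl arrays (4.57 and 9.90), so at least 1.27-fold higher, opposite to the brightest. Averaging all kept probe sets gave a log2 change of 0.20 for SNX22. With 235460_at left out, as its shControl signals were under the threshold, the mean was -0.82 (limma adjusted p = 0.511).

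**Figure D2:**
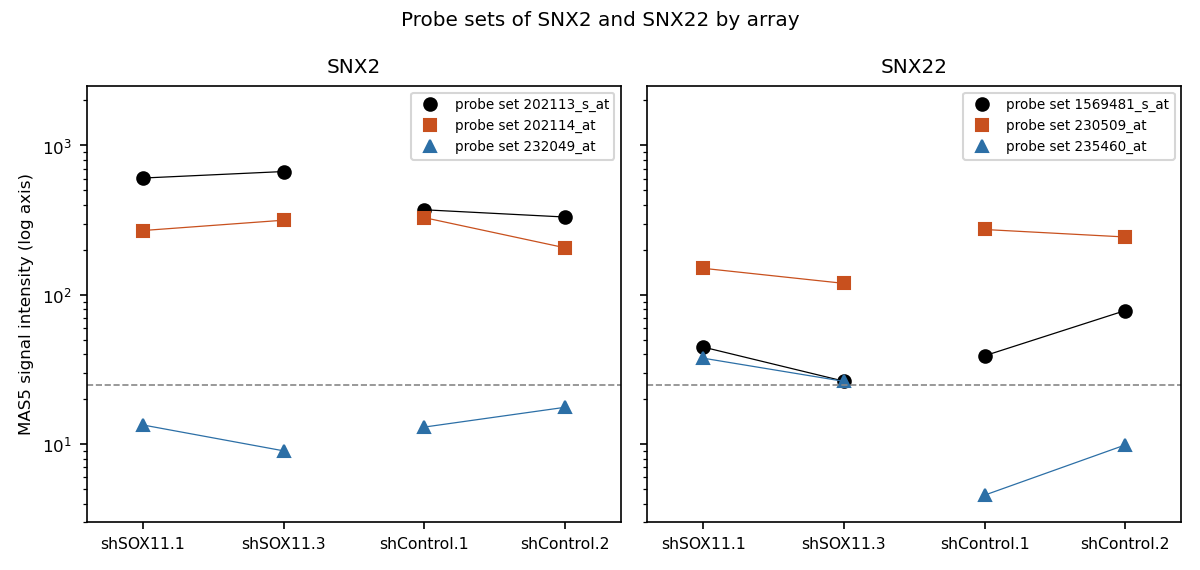
MAS5 signal intensity (log axis) of every probe set of SNX2 (left) and SNX22 (right) on the shSOX11 arrays and the shControl arrays, with lines joining arrays of the same group and a dashed line at the signal threshold of 24.8. For SNX2 only probe set 202113_s_at separates the groups with the shSOX11 arrays on top (605 and 669, against 371 and 332 on the shControl arrays). For SNX22 probe sets 230509_at and 235460_at separate them in opposite directions.

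The stretches upstream of SNX2 and SNX22 are shown because these members stood furthest apart and the hairpins target a DNA-binding factor. Each runs over the 250 bases before the RefSeq gene start on the plus strand of GRCh38.p14. They were searched on both strands for ACAAAG and ACAATG, forms of the core bound by SOX proteins, with matches in capitals.
SNX2, chr5:122774746-122774995: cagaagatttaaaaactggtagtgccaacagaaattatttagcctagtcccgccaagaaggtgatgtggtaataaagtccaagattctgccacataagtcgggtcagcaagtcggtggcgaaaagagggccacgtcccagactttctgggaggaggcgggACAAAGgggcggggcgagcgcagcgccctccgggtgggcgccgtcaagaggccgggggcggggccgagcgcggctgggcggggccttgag
SNX22, chr15:64151481-64151730: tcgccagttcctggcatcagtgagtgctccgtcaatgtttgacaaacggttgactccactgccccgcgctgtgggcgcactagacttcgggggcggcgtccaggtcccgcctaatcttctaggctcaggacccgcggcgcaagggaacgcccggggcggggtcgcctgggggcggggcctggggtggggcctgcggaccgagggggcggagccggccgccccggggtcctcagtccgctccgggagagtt
The SNX2 stretch held 1 match, from 90 to 85 bases before the start, and the SNX22 stretch held 0. Of 35116 such stretches in the table, 21.2% held a match, as did 9 of the 46 SNX and VPS genes listed there (19.6%). These are letters in a window and say nothing of binding.

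Among the partners of SNX2 in membrane tubulation, SNX6 and SNX1 were higher on both shSOX11 arrays at their brightest probe sets, SNX1 by less. The groups of SNX5 overlapped. SNX6 read 838 and 1076 on the shSOX11 arrays against 698 and 743 on the shControl arrays, without overlap (log2 change 0.40, SE 0.17, unadjusted p = 0.0452, limma adjusted p = 0.585), and its second probe set lay at 0.19. SNX1, the closest relative of SNX2, read 457 and 397 on the shSOX11 arrays against 383 and 372 on the shControl arrays, without overlap (log2 change 0.17, 95% interval -0.20 to 0.55). Its other probe sets past the filter lay at 0.29 and -0.09. SNX5 read 2467 and 3366 on the shSOX11 arrays and 3436 and 2904 on the shControl arrays, so the groups overlapped (log2 change -0.13, 95% interval -0.55 to 0.28). Of the 6 SNX5 probe sets past the filter 3 were higher and 3 lower. One of them, 238433_at, read 43.3 and 32.3 on the shSOX11 arrays and was under the threshold on both shControl arrays (7.06 and 6.87), so at least 1.51-fold higher. SNX32, a relative of SNX5 and SNX6, was not tested, at 3.82 and 8.42 on the shSOX11 arrays and 17.4 and 25.7 on the shControl arrays, with 1 value above the threshold.

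The genes of the retromer trimer itself stayed within 0.13 of control on the log2 scale at their brightest probe sets. VPS35, the scaffold of the trimer, read 2205 and 1919 on the shSOX11 arrays against 1802 and 1958 on the shControl arrays (log2 change 0.13, 95% interval -0.20 to 0.47). VPS29, which caps the far end of VPS35, read 4265 and 3298 on the shSOX11 arrays against 3542 and 3581 on the shControl arrays (log2 change 0.07, 95% interval -0.29 to 0.44). VPS26A, which links retromer to sorting nexins and cargo, read 987 and 950 on the shSOX11 arrays against 918 and 918 on the shControl arrays (log2 change 0.08, 95% interval -0.25 to 0.40). These intervals leave room for changes of the size seen at SNX6, but not of the size seen at SNX2. VPS26B, the paralog of VPS26A, was spread more widely on the shSOX11 arrays, at 221 and 143, than on the shControl arrays, at 181 and 177, for a log2 change of -0.01 (95% interval -0.56 to 0.54). VPS26C, the counterpart of VPS26A in the related retriever complex, read 174 and 175 on the shSOX11 arrays and 169 and 179 on the shControl arrays (log2 change 0.0041, 95% interval -0.42 to 0.43).

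VPS29 is an example of probe sets that part ways. Its second probe set past the filter, 1554388_at, lay near the threshold and was lower, with 28.2 and 26.4 on the shSOX11 arrays against 58.7 and 71.8 on the shControl arrays (log2 change -1.25, 95% interval -2.08 to -0.43). Adjusted over all 28202 probe sets its limma p was 0.477. The VPS35 probe sets past the filter numbered 5, of which 4 were higher and 1 lower, and none of these lay further from 0 than 0.32.

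**Figure D3:**
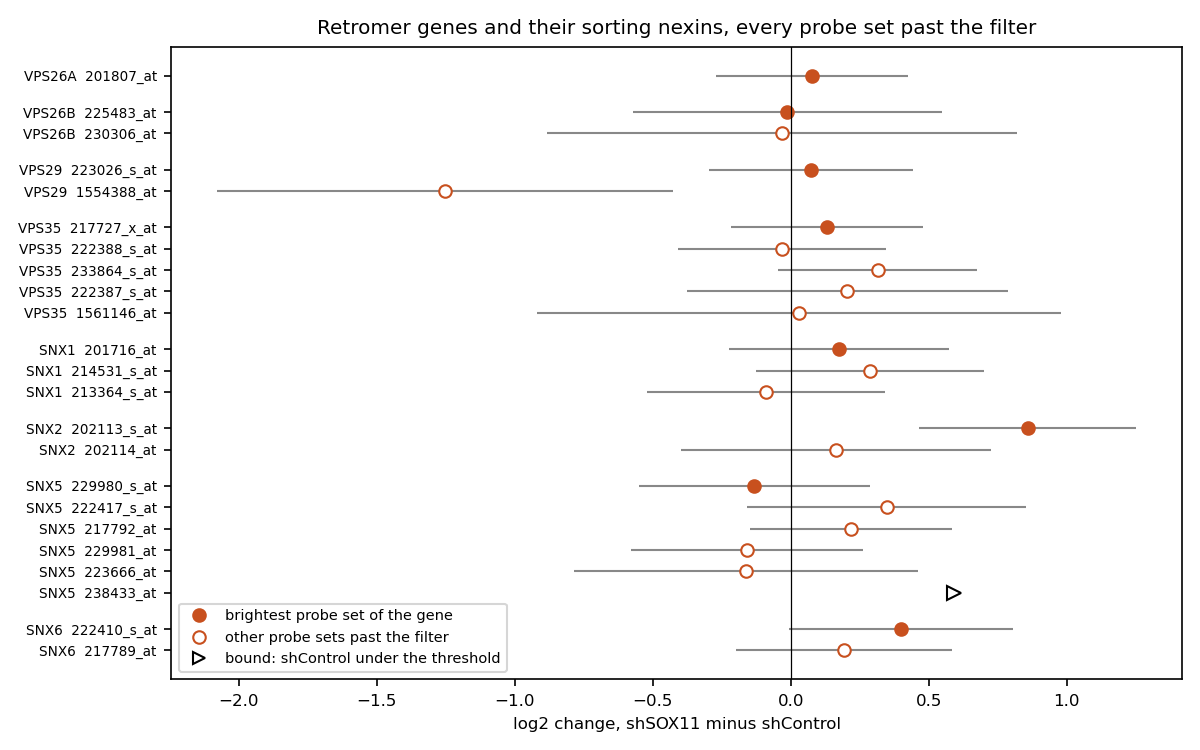
Log2 change (shSOX11 minus shControl) of every probe set past the signal filter for the retromer genes and the sorting nexins that work with them, with 95% intervals from a fit of each probe set on its own. Filled points are the brightest probe set of each gene, and the arrowhead marks a bound without an interval, where both shControl arrays were under the threshold (SNX5 238433_at, at least 1.51-fold higher). SNX2 202113_s_at at 0.86 and VPS29 1554388_at at -1.25 have intervals clear of 0, and the other probe set of each gene has an interval that spans 0.

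Of the 7 other SNX-BAR genes, 0 lay under an unadjusted p of 0.05. The 5 that were above the threshold on all arrays had log2 changes above 0, where the share over all genes was 41.9%. SNX4, which recycles receptors and takes part in autophagy, had the smallest p among them and read 500 and 521 on the shSOX11 arrays against 411 and 386 on the shControl arrays, without overlap (log2 change 0.36, SE 0.16, limma adjusted p = 0.585), and its second probe set lay at 0.50. SNX18, a membrane-remodelling relative of SNX9, read 433 and 334 on the shSOX11 arrays against 283 and 318 on the shControl arrays, for a log2 change of 0.34 (95% interval -0.09 to 0.78). Its other probe set did not reach the threshold on either shSOX11 array (5.29 and 17.0) and read 46.4 and 28.5 on the shControl arrays, at least 1.46-fold lower. SNX33 and SNX8, singled out after their values were seen, show how noisy signals near the threshold were. SNX33 read 7.21 and 35.9 on the shSOX11 arrays and 34.1 and 47.6 on the shControl arrays, and its other probe set did not reach the threshold on either shSOX11 array (at least 1.19-fold lower). SNX8 read 26.7 and 16.9 on the shSOX11 arrays and 32.8 and 1.77 on the shControl arrays, and no direction can be read from the brightest probe set of either gene.

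The FERM-domain sorting nexins bind the tails of cargo receptors. SNX17, which hands integrins and LDL receptor relatives to retriever for recycling, read 320 and 424 on the shSOX11 arrays against 287 and 255 on the shControl arrays, without overlap (log2 change 0.45, SE 0.19, unadjusted p = 0.0496, limma adjusted p = 0.585). SNX27, the adaptor that works with retromer, read 172 and 135 on the shSOX11 arrays against 155 and 121 on the shControl arrays (log2 change 0.15, 95% interval -0.38 to 0.68), and its groups overlapped. SNX31, the remaining member, was under the threshold on every array.

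In the SNX-RGS class, several of whose members sit at contacts of the endoplasmic reticulum with other organelles, 1 of 4 genes lay under an unadjusted p of 0.05. SNX14, a lipid-handling member mutated in a childhood ataxia, read 516 and 563 on the shSOX11 arrays against 401 and 426 on the shControl arrays (log2 change 0.38, SE 0.16, unadjusted p = 0.0406, limma adjusted p = 0.573). Its other probe set past the filter lay on the other side, at -0.28. SNX19, named after its values were seen, had all 3 kept probe sets above 0, the brightest of which read 97.8 and 75.4 on the shSOX11 arrays against 62.0 and 71.3 on the shControl arrays (log2 change 0.37, 95% interval -0.26 to 1.00). SNX13 and SNX25 lay at 0.03 (95% interval -0.41 to 0.47) and 0.0059 (95% interval -0.39 to 0.41), and the groups of both overlapped.

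The sorting nexins with a PX domain and no BAR, FERM or RGS part numbered 11, of which 10 were tested. Apart from SNX22 their log2 changes ran from -0.28 to 0.43. SNX16 acts on late endosomes. It was picked with its values in view and stood at the top of that range, with 139 and 174 on the shSOX11 arrays against 108 and 122 on the shControl arrays (95% interval -0.07 to 0.94), and its second probe set was higher too. SNX3, which helps retromer carry the Wnt secretion factor WLS, read 2859 and 2323 on the shSOX11 arrays against 2374 and 2279 on the shControl arrays (log2 change 0.15, 95% interval -0.20 to 0.50), and all 4 of its probe sets were above 0. SNX21 was not tested, with 1 value above the threshold (30.5 and 5.92 on the shSOX11 arrays, 8.50 and 5.06 on the shControl arrays).

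Among the tethers of endosome fusion, 1 of 8 genes lay under an unadjusted p of 0.05. VPS8, a subunit particular to CORVET, read 147 and 154 on the shSOX11 arrays against 92.0 and 108 on the shControl arrays, without overlap (log2 change 0.59, SE 0.21, unadjusted p = 0.0235, limma adjusted p = 0.517). Its other probe set past the filter, with 43.3 and 33.7 on the shSOX11 arrays against 44.6 and 51.5 on the shControl arrays, lay at -0.33. For VPS39 and VPS41, the subunits particular to HOPS, the log2 changes were -0.12 and 0.09. VPS33A, the fusion-regulating subunit of both tethers, read 351 and 348 on the shSOX11 arrays against 374 and 394 on the shControl arrays (log2 change -0.14, 95% interval -0.50 to 0.23), with all 3 probe sets below 0. Among the other subunits that both tethers share, VPS16 read 225 and 198 on the shSOX11 arrays and 167 and 180 on the shControl arrays (log2 change 0.28, 95% interval -0.15 to 0.71), VPS11 lay at -0.04 and VPS18 at -0.33 (95% interval -0.93 to 0.28). Of the 8 genes in this group, which includes VPS33B of a separate tether at -0.08, 5 were below 0, where 58.1% of all genes were.

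The Golgi tethers divided by gene without passing the test. VPS51, shared by GARP and EARP, was lower, with 684 and 684 on the shSOX11 arrays against 864 and 844 on the shControl arrays (log2 change -0.32, SE 0.15, limma adjusted p = 0.591). VPS50, which sets EARP apart, was higher, with 465 and 456 on the shSOX11 arrays against 376 and 357 on the shControl arrays (log2 change 0.33, SE 0.16, limma adjusted p = 0.598), and all 4 of its probe sets were above 0. Neither gene's groups overlapped. VPS54, which sets GARP apart, lay at 0.21 (95% interval -0.19 to 0.61), with 3 of 3 probe sets above 0. The remaining genes of this group were VPS52 at -0.19 (95% interval -0.65 to 0.28) and VPS53 at -0.29 (95% interval -1.19 to 0.62). VPS53 was dim, with 35.4 and 33.9 on the shSOX11 arrays and 45.3 and 39.4 on the shControl arrays. Its second probe set past the filter lay on the other side, at 0.85. VPS50, VPS52, VPS53 and VPS54 were described after their values were seen.

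VPS45, the Sec1/Munc18 protein that guides SNARE pairing at endosomes and is mutated in a congenital neutropenia, was the VPS gene with the smallest p. It read 324 and 443 on the shSOX11 arrays against 240 and 249 on the shControl arrays, 1.55-fold higher (log2 change 0.63, SE 0.20, 95% interval 0.18 to 1.09, unadjusted p = 0.0117, limma adjusted p = 0.463). The groups did not overlap, and the step above control was 0.41 for shSOX11.1 and 0.86 for shSOX11.3. Its other probe set was under the threshold on all arrays.

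Of the 9 ESCRT genes tested 6 were below 0, where 58.1% of all genes were, and 1 lay under an unadjusted p of 0.05. VPS37B, an ESCRT-I subunit, read 351 and 399 on the shSOX11 arrays against 582 and 483 on the shControl arrays, 1.42-fold lower without overlap (log2 change -0.50, SE 0.17, unadjusted p = 0.0193, limma adjusted p = 0.515), and it has 1 probe set. VPS37A, its paralog, was on the other side without overlap, with 257 and 238 on the shSOX11 arrays and 196 and 209 on the shControl arrays (log2 change 0.29, 95% interval -0.12 to 0.69), and both of its probe sets were above 0. VPS37D was at the edge of detection, at 27.3 and 20.3 on the shSOX11 arrays and 15.7 and 45.9 on the shControl arrays. In ESCRT-II, VPS36 read 1355 and 1378 on the shSOX11 arrays against 1120 and 1208 on the shControl arrays (log2 change 0.23, 95% interval -0.09 to 0.56). VPS25, which shares that complex and was picked after its values were seen, leaned the other way, with 1301 and 949 on the shSOX11 arrays against 1341 and 1372 on the shControl arrays (log2 change -0.29, 95% interval -0.70 to 0.12). VPS4A, an ATPase that takes ESCRT-III filaments apart, read 326 and 316 on the shSOX11 arrays against 383 and 355 on the shControl arrays (log2 change -0.20, 95% interval -0.57 to 0.17). VPS4B, its paralog, read 1835 and 2194 on the shSOX11 arrays and 2019 and 1887 on the shControl arrays, with overlap (log2 change 0.04, 95% interval -0.30 to 0.38).

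The VPS13 genes encode long bridge-like proteins that move lipids between membranes. At their brightest probe sets all 4 had log2 changes above 0, from 0.05 to 0.22, where 41.9% of all genes were above 0. None of these lay under an unadjusted p of 0.05. VPS13B, which acts at the Golgi, read 412 and 359 on the shSOX11 arrays against 318 and 342 on the shControl arrays (log2 change 0.22, 95% interval -0.16 to 0.61). Of the probe sets past the filter, VPS13A had 4 of 4 above 0, VPS13C 2 of 3 and VPS13D 3 of 4. Those of VPS13D parted, with 212323_s_at at 0.59 (limma unadjusted p = 0.0497 on its own) and 212326_at at -0.54, each without overlap. VPS72, the chromatin protein that binds the histone variant H2A.Z, read 740 and 474 on the shSOX11 arrays and 823 and 712 on the shControl arrays, so its groups overlapped (log2 change -0.37, SE 0.22, limma adjusted p = 0.653).

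Taken by name, 22 of the 27 SNX genes tested had a log2 change above 0 (median 0.15), as had 17 of the 33 VPS genes (median 0.0041). Over all 11906 genes tested the share above 0 was 41.9% and the median -0.06. For the SNX and VPS genes together, 39 of 60 were above 0 with a median of 0.11. That median was 0.20 with shSOX11.1 as the only shSOX11 array and 0.04 with shSOX11.3, where all genes had -0.0045 and -0.10, and 0.10 and 0.08 without shControl.1 and shControl.2. It was 0.19 with each array centred on its median, where all genes had 0.02. Groups that did not overlap were found for 32 of the 60 members (53.3%, 21 higher and 11 lower), against 41.0% of all genes, 16.1% higher and 24.9% lower. These shares describe a list picked by name and carry no test. A further 17 members had the shSOX11 arrays on opposite sides of the control mean. Among the 49 tested genes that were above the threshold on all arrays and not under an unadjusted p of 0.05, log2 changes ran from -0.37 to 0.43.

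**Figure D4:**
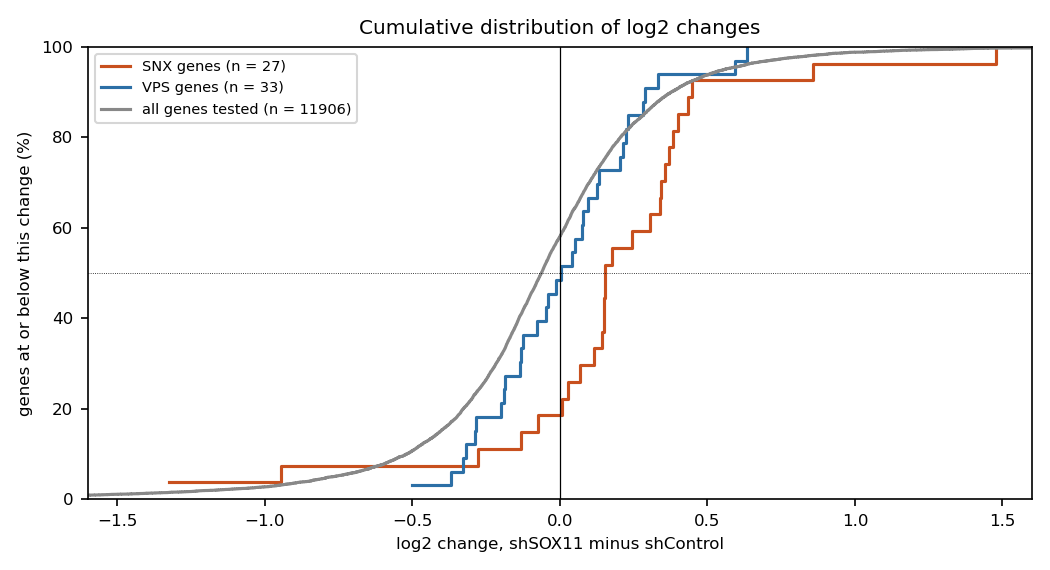
Cumulative share of genes (vertical axis, %) at or below each log2 change, shSOX11 minus shControl (horizontal axis), for the 27 SNX genes, the 33 VPS genes and all 11906 genes tested. The SNX curve reaches 50% at 0.15, the VPS curve at 0.0041 and the curve of all genes at -0.06.

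Probe sets of the same gene often disagreed. Of 39 members with more than 1 probe set past the filter, 19 had probe sets on both sides of 0 (48.7%), where the share was 51.6% among all 5816 such genes. The 19 include SNX22 and SNX18, where the opposite side rests on a probe set under the threshold on both arrays of 1 group. Such probe sets were counted in both shares. With each of the 127 kept member probe sets tested on its own, 10 lay under an unadjusted p of 0.05 (7.87%, against 8.26% of all probe sets). Of these 7 were higher and 3 lower, in 10 genes, and the smallest limma adjusted p was 0.348. The 7 higher include SNX5 238433_at, which was under the threshold on both shControl arrays and gives only a bound. They also include SNX16 219793_at and SNX19 202358_s_at, whose shControl.1 signals (15.8 and 14.0) were under the threshold. The larger share seen with the brightest probe sets was not seen over all of them, but the shares differ by fit as well as by probe set. In the fit of all probe sets, the brightest ones of SNX6, SNX14 and SNX17 kept their log2 changes. Their limma unadjusted p there was 0.0521, 0.0512 and 0.0578, so they no longer lay under 0.05.

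Genes that work with the members but lie outside the naming rule were counted from a list of 79, covering the WASH, CCC and ESCRT complexes, endosomal Rab GTPases, phosphoinositide enzymes, SNAREs and cargo receptors. Of the 72 with a probe set of 1 symbol, 70 were tested. Their log2 changes had a median of 0.02 and 40 were above 0 (57.1%, against 41.9% of all genes). Under an unadjusted p of 0.05 lay 2 (2.86%, against 8.42% of all genes), both higher. FIG4, a phosphoinositide phosphatase of the endosome, read 147 and 188 on the shSOX11 arrays against 105 and 122 on the shControl arrays (log2 change 0.55, SE 0.22, limma adjusted p = 0.562). STX12, an endosomal SNARE, read 295 and 359 on the shSOX11 arrays against 239 and 240 on the shControl arrays (log2 change 0.44, SE 0.18, limma adjusted p = 0.569). The partner count moved with the array left out, as did the share of all genes. With 1 array left out in turn, the log2 change ran from 0.38 to 0.73 for FIG4 and from 0.30 to 0.58 for STX12.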

How the data were processed

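Total RNA of 4 samples was hybridised to 1-colour Affymetrix U133 Plus 2.0 arrays. The deposited values are the authors' linear MAS5 signal intensities, 1 per probe set, from Affymetrix Expression Console, per the submitters' processing notes. No version or scaling target is given in the sources used here. MAS5 subtracts mismatch probes, so dim signals carry more error than bright ones. The number of arrays limits the precision.

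Intensities were taken to log2 without a pseudocount or further normalization. Each gene with 1 symbol was read by the probe set of highest mean log2 signal, kept where it exceeded 24.8, the median over the whole table, on 2 or more arrays. The 11906 genes left were fitted with limma 3.58.1 in R 4.3.3 (intensity trend, two-sided, 2 residual degrees of freedom, Benjamini-Hochberg adjustment over all genes). An exact permutation of 2 against 2 arrays cannot give a p below 0.333. The fit was run on simulated arrays with the same spread in both groups, which does not cover the unequal spread of the groups here. A probe set under the threshold on both arrays of a group got only a bound, the other group's mean over the threshold. Sequences came from RefSeq (GRCh38.p14).

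Members, lists and tests were chosen with earlier results of these arrays known. Named were SNX2, members under an unadjusted 0.05 or 1.5-fold apart on all pairs, the retromer genes, the smallest p of every other role group, and members under the threshold in 1 group only. Of the partners, up to 6 under an unadjusted 0.05 were named. All other members named, including those without a remark, were chosen after their values were seen.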

Additional observations from a re-analysis of the deposited data

How the results depend on the processing

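SOX11 and SNX2 kept their direction under every alternative. Of 46 further single genes followed through the alternatives, 29 kept theirs under each and 17 did not. Averaging probe sets gave log2 changes of 0.20 for SNX22, -0.59 for VPS29, 0.42 for SNX5, 0.043 for VPS18 and -0.80 for SNX18, 0 members 1.5-fold apart and 6 partners under an unadjusted p of 0.05. The values for SNX22, SNX5 and SNX18 rest on a probe set under the threshold on both arrays of 1 group. With such probe sets left out, an alternative chosen after seeing the data, they were -0.82, 0.023 and 0.34, VPS29 and VPS18 were again -0.59 and 0.043, and the counts were again 0 members and 6 partners. Median centring gave 0.070 for VPS26B, 0.0048 for VPS33B, 0.041 for VPS11, a member median of 0.19 and 6 partners. Quantile normalization gave -0.00083 for VPS26C, leaving out _x_at probe sets gave -0.031 for VPS35, and the fit without trend gave 4 members and 1 partner. At 2-fold the members numbered 0. The counts in this paragraph are given without the share of all genes, so they are not read as results about the members or partners.

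Leaving out 1 array in turn gave 0 to 951 genes past adjusted p 0.05 (951 without shSOX11.1, 210 without shSOX11.3), 2 to 14 members under an unadjusted 0.05, 3 to 4 members 1.5-fold apart, member medians of 0.040 to 0.20 and 0 to 10 partners. In these fits the lone array is taken to vary like the other group. The log2 change of SOX11 ran from -1.24 to -1.23 (adjusted p 0.00322 without shSOX11.1, 0.00227 without shSOX11.3) and that of SNX2 from 0.78 to 0.94 (adjusted p 0.0126 and 0.0377). With a shSOX11 array out, the spread came from the shControl arrays, whose log2 difference had a scaled median absolute deviation of 0.26, against 0.42 between the shSOX11 arrays. Over all alternatives the adjusted p of SNX2 ran from 0.0126 to 0.999. Ranges that crossed 0 were -0.33 to 0.30 for VPS26B, -0.11 to 0.26 for VPS29, -0.36 to 0.091 for SNX5, -0.037 to 0.045 for VPS26C, -0.63 to 3.59 for SNX8, -0.96 to 0.59 for VPS37D, -0.0018 to 0.30 for SNX3, -0.032 to 0.33 for SNX27, -0.16 to 0.21 for SNX13, -0.17 to 0.18 for SNX25, -0.089 to 0.17 for VPS4B and -0.17 to 0.018 for VPS33B. The cause was not tested for any of these.

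SNX8, SNX33 and VPS37D were not tested under the stricter signal filter, nor SNX8 without _x_at probe sets. No paired analysis was made, because the numbers name constructs and the labels pair no shSOX11 array with a shControl array. The arrays had 57 members above the threshold throughout, so dim signal limits few members and the number of arrays limits all of them.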
